A study of Mus musculus with 14 samples.

Results

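The collagen gene family was examined in mouse cortex, in 2 models that bear on the microRNA family miR-29. Its members were the genes whose symbol is Col, a number, the letter a and a number, which gave 44 genes of the 24444 in each deposited table, and all 44 were matched to the gene annotation. Polyadenylated RNA was sequenced from 14 cortex samples. In miR29Nestin mice (n = 3 samples) both floxed clusters, miR-29ab1 and miR-29b2c, were deleted with Nestin-Cre, a recombinase driven in neural progenitors and inherited by the neurons and glia that arise from them, and they were compared with miR29WT mice (n = 3 samples) at P40. In Dnmt3a-mi5 mice (n = 4 samples), whose labels give no deletion of miR-29, a knock-in had mutated the 5 sites through which miR-29 acts on Dnmt3a, a DNA methyltransferase. Their controls were Dnmt3a-WT mice (n = 4 samples), and both groups were 4.5 months old. The cells that lost miR-29 were not measured, and whether the miR29WT mice carried floxed alleles or Cre, and the zygosity of the knock-in, were not given in the sources used here. Values are normalised counts, recovered from the log2 values that the authors deposited, and log2 differences are on the deposited scale. Transcripts of both models came from a whole tissue, in which fewer cells of a type and less RNA per cell cannot be told apart.

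Collagens are secreted or membrane-bound proteins whose chains wind into a triple helix, and they are grouped by the structures they build. Fibrillar collagens form the fibres of connective tissue, type IV collagens form the sheets of basement membranes around blood vessels and beneath the pia, type VI collagens form beaded filaments, and FACIT collagens bind to fibrils. In the brain most fibrillar and basement membrane collagen is made by fibroblasts of the meninges and by cells of the vessel wall, while some of the rarer chains are made by neurons. The miR-29 family is known as a repressor of collagen genes in many tissues. A microRNA of this kind pairs through its seed with matching sites in the 3′ UTR of a transcript and lowers the level or the translation of that transcript.

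The mature microRNAs deleted in the first model are shown because their shared seed defines the sites counted below. They are given 5′ to 3′ from RefSeq, with bases 2 to 8, the seed, in capitals, and all 3 have the same seed.
miR-29a-3p: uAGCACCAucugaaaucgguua
miR-29b-3p: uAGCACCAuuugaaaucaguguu
miR-29c-3p: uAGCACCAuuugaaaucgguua

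A site was a match of TGGTGCT, the complement of the seed, on the transcribed strand of the longest annotated 3′ UTR (GENCODE M21, GRCm38), and a site followed by an A was counted as a longer match of 8 letters. The windows below hold 30 bases of the 3′ UTR, 5′ to 3′ on the strand of the transcript, with the site in capitals. They are from collagens that differed between miR29Nestin and miR29WT, and were chosen to show repeated sites (Col26a1 and Col4a2), single longer matches (Col4a1, Col1a1 and Col6a2) and the sites of a collagen that was lower in the mutant (Col5a1).
Col26a1 site 1 (chr5:136742904-136742910, minus strand): tccctggggagagaTGGTGCTtccaagggc
Col26a1 site 2 (chr5:136742025-136742031, minus strand): aaggcttctctggcTGGTGCTtggtctctt
Col26a1 site 4 (chr5:136741884-136741890, minus strand): atccctaaagttctTGGTGCTtatgcaagg
Col4a2 site 1 (chr8:11448359-11448365, plus strand): tgggaaggccacgtTGGTGCTtatccttct
Col4a2 site 2 (chr8:11448530-11448536, plus strand): caccacacccagctTGGTGCTtactcttaa
Col4a1 site 1 (chr8:11199762-11199768, minus strand): ccaccgtcacaacaTGGTGCTactcccccc
Col1a1 site 1 (chr11:94952538-94952544, plus strand): tgggaaggaatttcTGGTGCTatagaagct
Col6a2 site 1 (chr10:76598751-76598757, minus strand): agcacaaatgggggTGGTGCTatttgaacg
Col5a1 site 2 (chr2:28038034-28038040, plus strand): acacttgtctcttgTGGTGCTatgtgtccg
Col5a1 site 3 (chr2:28038350-28038356, plus strand): ttgctgaatgtttgTGGTGCTaatctctgt

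Sites for miR-29 were common among the collagens. At least 1 site lay in the 3′ UTR of 25 of the 44 collagens (56.8%), against 13.1% of the 21020 annotated genes with a 3′ UTR. Among genes with a 3′ UTR of 781 to 1763 nucleotides, the middle range of the collagens, 11.2% of 5547 genes and 60.9% of 23 collagens had a site. The family held 44 sites in all, of which 19 were longer matches. By number of sites, 19 collagens had 0, 14 had 1, 6 had 2, 2 had 3 (Col4a5 and Col5a3) and 3 had 4 (Col26a1, Col5a1 and the basement membrane chain Col4a3). The type IV chains all carried sites, 13 sites in 6 genes, and Col25a1, a transmembrane collagen of neurons, had its single site only in a 3′ UTR longer than that of its transcript with the longest coding sequence. Both chains of most type I collagen are described as miR-29 targets, but the 3′ UTR of Col1a2 held 0 sites of 7 letters and 2 matches of the 6 letters GGTGCT. These are matches of letters, and no binding was measured.

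The levels of the collagens were ranked in the wild-type group of each model on its own. At P40, 23 collagens passed the filter on low values (a mean near 48.0 normalised counts or more) and 21 lay under it, with means of 1.19 to 46.9. Per kb of transcript, the highest in miR29WT was Col6a1, the obligate first chain of type VI collagen, at 304 ± 57.3 normalised counts per kb (SD, n = 3). It was followed by Col4a2 at 142 ± 2.42, Col25a1 at 139.5 ± 5.16, Col4a1 at 97.96 ± 7.17 and Col5a1, a regulator of fibril width, at 81.6 ± 7.78. The libraries of Col6a1 in miR29WT all lay above those of Col4a2, and the ranges of Col4a2 and Col25a1 overlapped, as did those of Col5a1 and the next gene, Col19a1. Lengths are those of the transcript with the longest coding sequence. For Col25a1 this has 2624 nucleotides and a 3′ UTR of 30, while its longest annotated 3′ UTR has 4185. Its level per kb and its rank therefore depend on that choice of transcript. The 44 genes together came to 6561, 7409 and 7066 normalised counts in miR29WT and to 8514, 9275 and 9566 in miR29Nestin, so every mutant library was above every wild-type library. Without Col26a1 the sums were 6335 to 7182 and 7604 to 8711, and the groups were still apart.

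In the mice of the Dnmt3a model, 15 collagens passed the filter (a mean near 80.1 normalised counts or more) and 29 lay under it, with means of 3.09 to 81.0. Col25a1 was highest in Dnmt3a-WT, at 188 ± 22.3 normalised counts per kb (SD, n = 4), before Col6a1 at 147 ± 21.02, Col19a1 at 101 ± 18.4, Col4a2 at 84.1 ± 9.66 and Col6a2 at 69.3 ± 9.08. The lowest Dnmt3a-WT library of Col25a1 lay above the highest of Col6a1, and the lowest of Col6a1 above the highest of Col19a1, while Col19a1, Col4a2 and Col6a2 each overlapped the next in this order. The first place of Col25a1 again depends on the short transcript taken for its length. The tables were normalised separately and the mice differed in age, kit and genotype, so levels were not compared between them. The 44 genes came to 4975 to 5952 normalised counts in Dnmt3a-mi5 and to 5042 to 5922 in Dnmt3a-WT, ranges that overlap almost wholly.

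**Figure D1:**
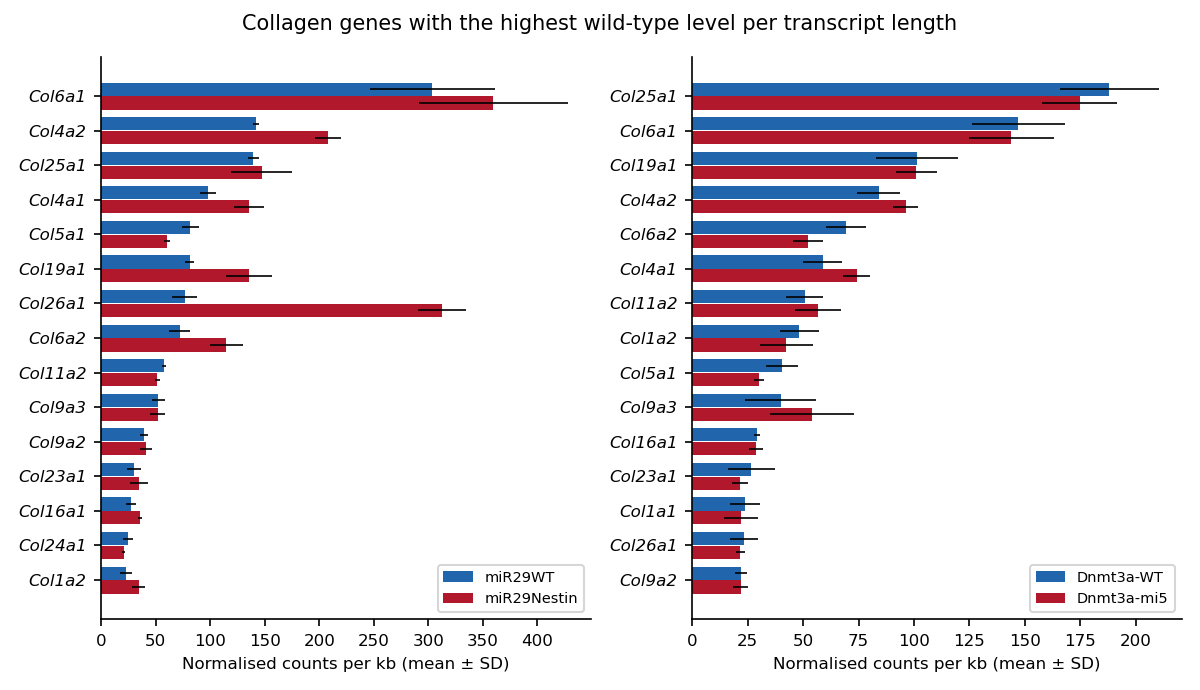
Levels of the 15 collagens with the highest wild-type level in each table, in normalised counts per kb of transcript (bars, mean; lines, SD; n = 3 per group on the left and 4 on the right). Lengths are those of the transcript with the longest coding sequence, a choice on which the rank of Col25a1 depends. Col6a1 leads in miR29WT and Col25a1 in Dnmt3a-WT, and Col26a1 goes from rank 7 in miR29WT to rank 2 in miR29Nestin.

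In miR29Nestin cortex, 8 of the 23 tested collagens rose and 1 fell. The 8 were Col26a1, Col6a5, Col19a1, Col4a2, Col6a2, Col4a1, Col1a1 and Col1a2, and the one that fell was Col5a1. Col6a5 passed the filter only through its mutant level, since its miR29WT mean of 33.3 normalised counts lay under it. The counts and shares below include it. Groups were compared with limma across all 12014 genes that passed the filter, and a gene was called at a Benjamini-Hochberg adjusted p under 0.05. By this rule 39.1% of the tested collagens were called, beside 19.1% of all genes tested, of which 9.02% were higher and 10% lower. An unadjusted p under 0.05 was found for 10 of the 23, beside 33.0% of all genes. The members' median log2 difference was 0.11, beside −0.01 for all genes tested, and 15 of 23 differences were positive. All mutant libraries lay above all wild-type libraries for 9 collagens and below them for 2, beside 18.6% and 18.7% of all genes tested (37.3% in either direction). In a fit without the filter 9 of the 44 collagens were higher and 1 lower, beside 12.8% of all genes in that fit, and the member added was Col4a5.

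**Figure D2:**
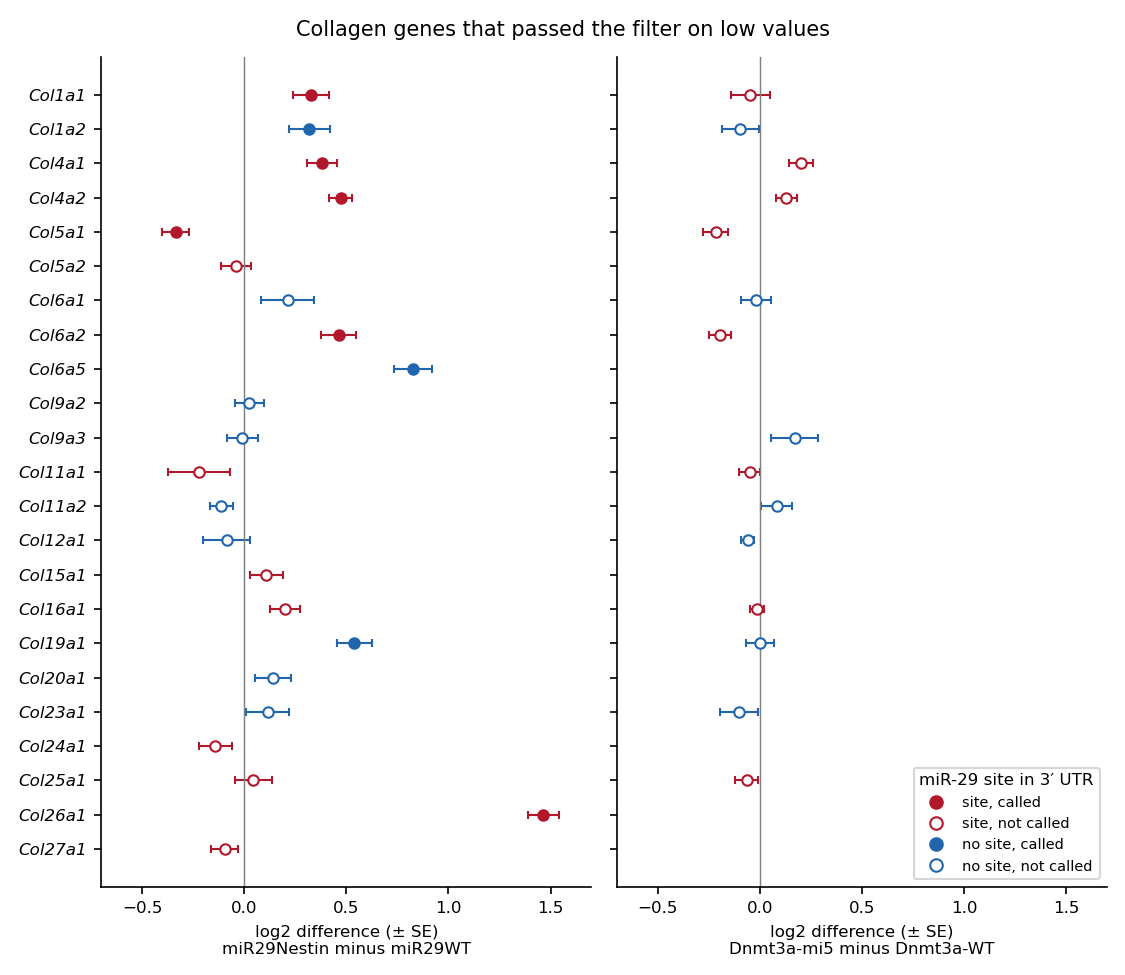
Log2 difference (points; lines, SE) of each collagen that passed the filter, miR29Nestin minus miR29WT on the left and Dnmt3a-mi5 minus Dnmt3a-WT on the right; filled points were called by limma, and colour shows whether the 3′ UTR holds a miR-29 site. On the left 8 filled points lie above 0 and 1 below it, and on the right there are 0 filled points.

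On the deposited log2 scale, which compresses low counts, the largest difference of the family was that of Col26a1, a short collagen with a non-collagenous EMI domain that is made in few adult tissues. The 3 mutant libraries gave 911, 791 and 855 normalised counts and the 3 wild-type libraries 225, 228 and 173. The lowest mutant library was thus far above the highest wild-type one. The means were 852 ± 59.8 and 209 ± 30.9 (SD, n = 3 each), a 4.09-fold difference, and the log2 difference was 1.46 (SE 0.08, limma adjusted p = 2.05e-06). Its difference was 1.34 within females and 1.58 within males, with a single miR29WT library among the females and a single miR29Nestin library among the males. The exact 2-sided permutation test gave p = 0.1, the smallest value that 3 against 3 allows, for Col26a1 as for every collagen whose groups did not overlap in this model. Its 3′ UTR of 1287 nucleotides holds 4 sites, starting at positions 136, 1015, 1051 and 1156, and none of them is a longer match.

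**Figure D3:**
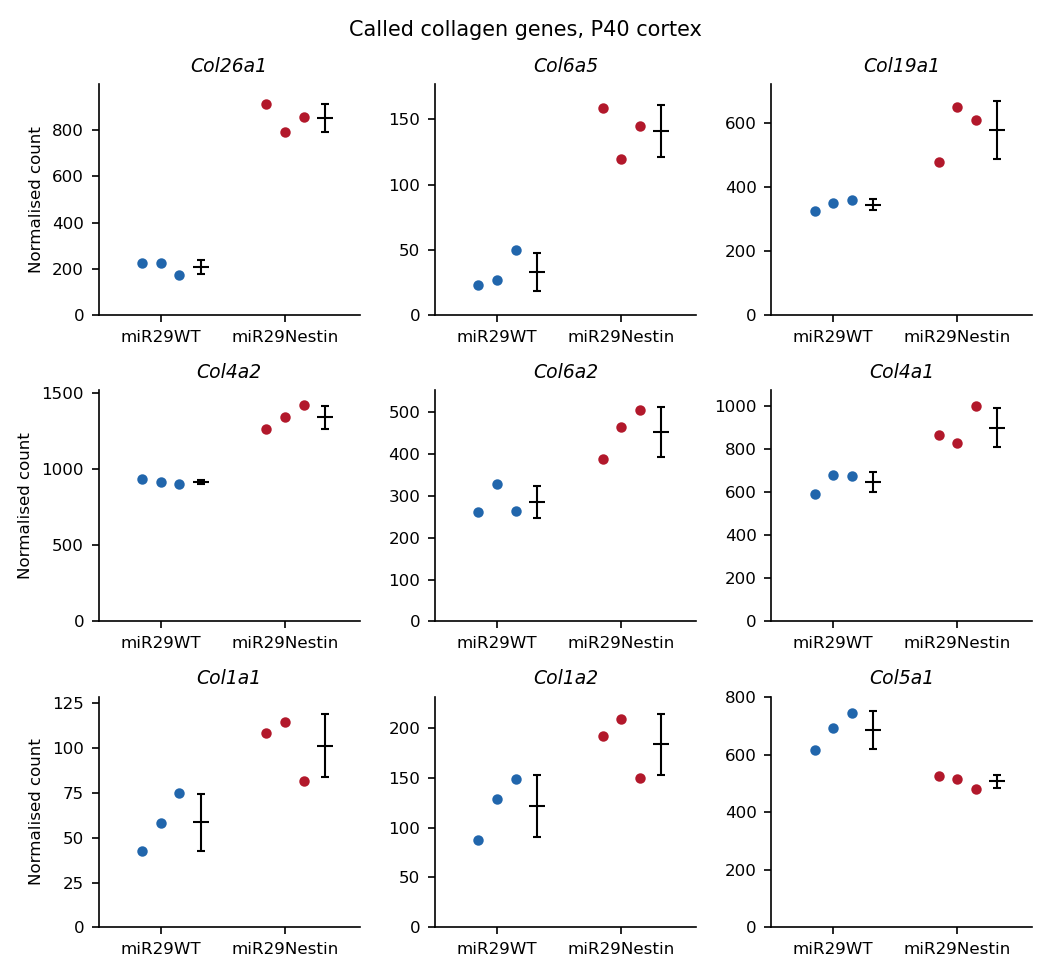
Normalised counts of the 9 called collagens in each library (points), with the mean and SD (n = 3 per group). In every panel the miR29WT and miR29Nestin libraries are apart, with Col1a2 the closest (148.7 and 149.6 in the nearest libraries), and Col5a1 is the panel in which the mutant libraries are lower.

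Both tested basement membrane chains rose. Col4a1 and Col4a2, which join into the most common type IV collagen and are encoded head to head on chromosome 8, were higher in every mutant library. Col4a2 stood at 1266, 1339.9 and 1419 normalised counts in miR29Nestin and at 933, 914 and 902 in miR29WT, with little spread in the wild type. The log2 difference came to 0.47 (SE 0.06; 1.46-fold; limma adjusted p = 2.48e-04). Col4a1 stood at 864, 828 and 999.99 against 593, 677 and 674. For this chain the log2 difference was 0.38 (SE 0.07; 1.39-fold; limma adjusted p = 0.00444). The 2 genes overlap by 22 bp on opposite strands, and whether the authors' counting used strand is not given in the sources used here. The other 4 type IV chains lay under the filter. Of them Col4a5, with 3 longer matches, stood at 45.6, 59.1 and 48.9 against 28.6, 24.6 and 29.1, groups that do not overlap, and in the fit without a filter its log2 difference was 0.27 (limma adjusted p = 0.0201). Its neighbour Col4a6 had a log2 difference of −0.02 and overlapping groups at 12.7 ± 2.33 and 13.8 ± 1.99 normalised counts. Col4a3 and Col4a4, paired in the same way on chromosome 1, had means of at most 12.8.

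Of the type VI chains, which assemble into beaded filaments, 2 of 3 tested members rose. Col6a2 stood at 388, 466 and 506 normalised counts in miR29Nestin and at 261, 329 and 265 in miR29WT, with no overlap. It differed by 0.46 on the log2 scale (SE 0.09; 1.59-fold; limma adjusted p = 0.00395). Col6a5, one of the long chains that can take the place of the third chain, stood at 159, 119 and 145 against 23.02, 27.2 and 49.8. Its difference on the deposited scale was 0.83 (SE 0.09; limma adjusted p = 2.07e-04), with 0 sites in its 3′ UTR. By the ratio of mean counts it stood first in the family, at 4.23-fold, and on log2(count + 1) values its difference was 2.12, against 2.03 for Col26a1. Its miR29WT mean lay under the filter, so it was tested only through its mutant level. Col6a1, with 0 sites, stood at 1150.1, 1635 and 1637 against 1054, 1508 and 1174, so the groups overlapped. Its difference was 0.21 (limma adjusted p = 0.291) and was called when the replicate number was a block (SE 0.07, adjusted p = 0.0362) and without miR29Nestin library 1 (difference 0.36, adjusted p = 0.0416). With sex as a covariate the difference of Col6a1 was 0.07 (SE 0.06, limma adjusted p = 0.411), and without any other single library it was 0.11 to 0.34 and not called. Under the filter, Col6a6 stood at 15.4 ± 5.26 against 7.27 ± 2.06 counts (SD, n = 3 each), Col6a3 at 46.97 ± 5.34 against 32.4 ± 8.76 and Col6a4 at 13.4 ± 16.3 against 16.5 ± 7.13.

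The fibrillar collagens went in both directions: of 8 tested, 2 rose and 1 fell. Col1a1 and Col1a2 encode the chains of type I collagen, the main fibre of connective tissue and in brain a product of the meninges. Col1a1 stood at 108, 114 and 81.6 normalised counts in miR29Nestin and at 42.8, 58.3 and 74.8 in miR29WT. Its log2 difference was 0.33 (SE 0.09; 1.73-fold; limma adjusted p = 0.0265), and the call ended when miR29Nestin library 1 (0.0681) or 2 (0.102) or miR29WT library 1 (0.0801) or 2 (0.0762) was left out. Col1a2 stood at 192, 209 and 149.6 against 87.7, 128 and 149. The third library of each group gave nearly the same value. The log2 difference, 0.32 (SE 0.10; 1.51-fold; limma adjusted p = 0.0483), lost its call in 7 of 13 alternatives, without any of the same 4 libraries (0.0991 to 0.170), with sex as a covariate (0.0623), without a variance trend (0.0504) and on log2(count + 1) values (0.0531). Col3a1, which forms fibrils with type I collagen, lay under the filter at 56.9, 41.1 and 29.01 against 14.3, 33.7 and 33.2, with overlapping groups (log2 difference 0.19 without the filter, limma adjusted p = 0.245).

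Col5a1 was the only called collagen that was lower in miR29Nestin, although its 3′ UTR holds 4 sites, 2 of them longer matches. It encodes a chain of type V collagen, which starts the assembly of type I fibrils. It stood at 525, 515 and 482 normalised counts in miR29Nestin and at 616, 695 and 746 in miR29WT, so every mutant library was below every wild-type library. Its log2 difference was −0.34 (SE 0.07; 0.740-fold; limma adjusted p = 0.00604). It was −0.37 within females and −0.29 within males, each with a single library in a group. Of the fibrillar collagens that were not called, Col11a1, of the related type XI collagen, had the largest difference in the family, −0.22 (SE 0.15, limma adjusted p = 0.347), and its 3′ UTR holds 2 sites. It stood at 69.96, 59.2 and 139 against 72.4, 145 and 153, and the library with the highest mutant value lay within the wild-type range. Col11a2 (−0.11), Col24a1 (−0.14), Col27a1 (−0.10) and Col5a2 (−0.04) had negative differences and limma adjusted p values of 0.215 to 0.754. The fibrillar class had a median of −0.10 over its 8 tested members.

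Among the 6 tested FACIT collagens, which attach to the surface of fibrils, 1 rose. Col19a1, which in the cortex is made mainly by interneurons, stood at 479, 651 and 610.3 normalised counts in miR29Nestin and at 327, 351 and 361 in miR29WT. No library of the groups overlapped, and its log2 difference was 0.54 (SE 0.08; 1.68-fold; limma adjusted p = 0.00158). The difference was 0.63 within females and 0.34 within males, each with a single library in a group. Its 3′ UTR of 696 nucleotides holds 0 sites, also of 6 letters. Col16a1, with 1 site, stood at 175, 180.5 and 194 against 163, 117 and 149. Its groups did not overlap, but its difference of 0.20 (SE 0.08) was not called (limma adjusted p = 0.0881). The other 4, Col20a1 (0.14), Col9a2 (0.03), Col9a3 (−0.01) and Col12a1 (−0.09), had limma adjusted p values of 0.299 to 0.949.

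Of the transmembrane collagens, which are shed from the cell surface, none that passed the filter was called. The same held for the multiplexins, which carry cleavable ends with effects on vessels. The transmembrane chains Col13a1 and Col17a1 and the multiplexin Col18a1 lay under the filter. Col17a1 stood at 35.4, 28.1 and 57.1 normalised counts against 25.2, 12.9 and 24.97. Its unfiltered difference of 0.24 was not called (limma adjusted p = 0.0963). Col25a1, the third most abundant collagen per kb in miR29WT, stood at 303, 418 and 438 normalised counts in miR29Nestin and at 359.7, 357 and 382 in miR29WT, and its difference was 0.05 (limma adjusted p = 0.773). Col23a1 (0.11) and the multiplexin Col15a1 (0.11) were also within the spread between libraries (limma adjusted p = 0.489 and 0.395). The short-chain collagens Col8a1, Col8a2 and Col10a1 and the anchoring fibril collagen Col7a1 lay under the filter. Of these Col8a1, a chain of vessel walls, stood at 41.02, 47.1 and 56.2 against 31.8, 32.4 and 23.3, groups that do not overlap, and its unfiltered difference of 0.22 was not called (limma adjusted p = 0.0678).

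Collagens that rose were found with and without a miR-29 site, and the difference between the 2 kinds was not tested. Of the 13 tested collagens with at least 1 site, 5 rose and 1 fell, with a median log2 difference of 0.11. Of the 10 with 0 sites, 3 rose and 0 fell, with a median of 0.13, and among the 3 was Col6a5, which passed the filter only through its mutant level. In the fit without the filter the order of the medians turned, with 6 of 25 higher and a median of 0.11 with a site, and 3 of 19 higher and a median of 0.09 with 0 sites. Leaving out miR29WT library 2 took the median of tested collagens with a site to 0.033. Over all genes tested, 17.2% of the 1925 with at least 1 site were higher, beside 7.41% of the 9653 with 0 sites, and their medians were 0.03 and −0.01. The tested collagens with 4 sites went in opposite directions, Col26a1 higher and Col5a1 lower. Those with 2 sites were Col4a2, which rose, and Col11a1, which was not called. With longer matches only, 7 tested collagens had a site, of which 3 rose (Col4a1, Col6a2 and Col1a1) and 1 fell.

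**Figure D4:**
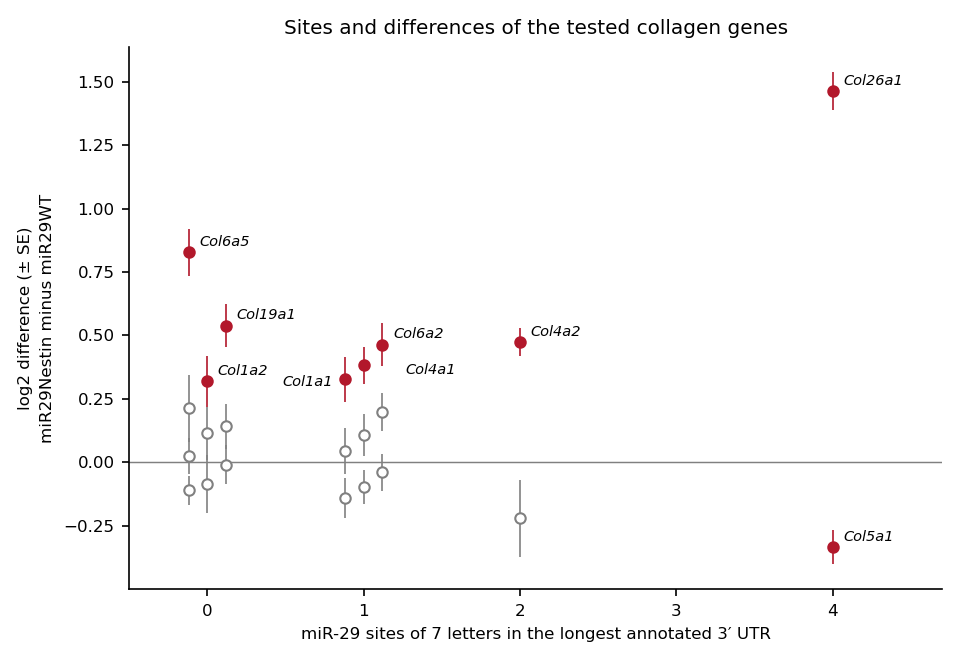
Log2 difference of the 23 tested collagens (miR29Nestin minus miR29WT; points, estimate; lines, SE) by the number of miR-29 sites of 7 letters in the longest annotated 3′ UTR; points of 1 column are spread sideways, and filled points were called by limma. Called collagens are found at 0, 1, 2 and 4 sites, and the 2 tested collagens with 4 sites lie at 1.46 and −0.34.

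Markers of the cells that make most brain collagen were followed in the same libraries, and their part in the differences above was not tested. The counts of called markers stand beside 9.02% higher and 10% lower over all genes tested, and were not tested against these shares. Summed over 13 leptomeningeal fibroblast markers, the level was 2343 to 2825 normalised counts in miR29Nestin and 1185 to 1817 in miR29WT. Of 10 that passed the filter 9 had a positive difference, with a median of 0.17 over the 10. Of them 4 were called higher, the secreted proteins and enzymes Igf2 (0.84), Cemip (0.48), Islr (0.47) and Mgp (0.45). The other 6 were not called, and only the collagen-binding proteoglycan Dcn had a negative difference (−0.07, limma adjusted p = 0.716). The 2 lists of vessel cells gave other values. The sum over 10 endothelial markers was 2900 to 3412 against 2815 to 2990, with 0 of 10 called, and that over 10 mural markers was 2893 to 3450 against 3330 to 3611, with Pdgfrb (0.28) and Myh11 (0.28) higher and Rgs5 (−0.35) lower. In miR29WT the library with the lowest leptomeningeal sum, library 1 at 1185, also had the lowest Col1a1, Col1a2, Col3a1 and Col4a1. Its Col4a2 was the highest of the group, at 933 normalised counts against 914 and 902. In miR29Nestin the library with the lowest leptomeningeal sum was the third, at 2343. It had the lowest Col1a1, Col1a2 and Col3a1 but the highest Col4a1 and Col4a2. Sums over 6 choroid plexus markers were 102 to 563 and 88.2 to 437. The cortical identity of the tissue was plain, but excitatory neuron markers summed to 61173 to 64896 in miR29Nestin and to 69220 to 80002 in miR29WT, with 3 of 5 lower. Markers of interneurons, the cells in which Col19a1 is mainly made, summed to 10669 to 11725 and 10786 to 11613, with 2 of 6 higher and 2 lower. Astrocyte markers summed to 7476 to 7741 and 5850 to 6059 (2 of 4 higher) and microglial markers to 2506 to 2756 and 2653 to 2919 (0 of 4 called). The sums were 95925 to 105232 and 87125 to 96460 for oligodendrocytes (2 of 4 higher), and 2477 to 2597 and 2070 to 2307 for their precursors (1 of 3 higher).

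Genes whose products make, bind or sense collagen were followed as well. Of 25 genes of collagen biosynthesis 24 were in the table and 18 passed the filter, and of these 3 rose and 1 fell. Over all genes tested 19.1% were called (9.02% higher and 10% lower), and no list in this paragraph was tested against these shares. Serpinh1, the chaperone HSP47 that is dedicated to procollagen, reached 263 ± 36.6 normalised counts against 143 ± 29.6 (SD, n = 3 each; log2 difference 0.51, SE 0.09, limma adjusted p = 0.00331). Plod1, a lysyl hydroxylase, and Ppib, a prolyl isomerase of the same folding step, had differences of 0.30 and 0.24 (limma adjusted p = 0.0172 and 0.0119). Adamts3, which trims the amino end of procollagens, had one of −0.36 (limma adjusted p = 0.0393). Among 7 tested receptors Itgb1, the common chain of the collagen-binding integrins, rose (0.26, limma adjusted p = 0.0111) and Adgrg1, a receptor for type III collagen in the developing cortex, fell (−0.22, limma adjusted p = 0.0219). Of the 3 tested collagen-binding proteoglycans, Bgn, Dcn and Fmod, 0 were called by limma, and their differences were 0.22, −0.07 and 0.28.

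In Dnmt3a-mi5 cortex none of the 15 tested collagens was called by limma, beside 0.797% of the 10670 genes tested there (0.225% higher and 0.572% lower), and 4 had an unadjusted p under 0.05, beside 19.0% of all genes. Dnmt3a itself, the gene whose sites were mutated, was 1.82-fold higher in these mice and 3.33-fold higher in miR29Nestin. The members' median log2 difference was −0.05, beside 0.00 over all genes, and 5 of 15 differences were positive. For 2 collagens all mutant libraries lay below all wild-type ones, beside 6.67% of all genes, and for 0 they lay above, beside 5.33% (12.0% in either direction). The smallest limma adjusted p of a member was 0.0975, that of Col6a2. Each table was fitted on its own and the difference between the models was not tested. The main fit here had no term for the sets of libraries between which the deposited values had been adjusted. Fewer genes were called with such a term.

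The 4 collagens nearest to the threshold were Col6a2, Col5a1, Col4a1 and Col4a2, all of which were called in miR29Nestin. Col6a2 stood at 216, 208, 170.2 and 233 normalised counts in Dnmt3a-mi5 and at 242, 291, 246 and 316 in Dnmt3a-WT, so the groups did not overlap. On the log2 scale it differed by −0.19 (SE 0.05, limma adjusted p = 0.0975), of the opposite sign to its 0.46 in miR29Nestin. The exact 2-sided permutation test gave p = 0.0286, the smallest that 4 against 4 allows. Col5a1 stood at 268, 247, 228 and 271 against 402, 273, 310.1 and 377, and its groups were apart by little. Its difference was −0.22 (SE 0.06, limma adjusted p = 0.105, exact permutation p = 0.0286), beside −0.34 in miR29Nestin. Without Dnmt3a-WT library 2, its lowest wild-type value, Col5a1 was called lower (difference −0.27, adjusted p = 0.0371). The deposited values had been adjusted between 2 sets of 4 libraries. The permutation test exchanged libraries across these sets, and the main limma fit had no term for them. The p values of both may therefore be too small. Within the sets the difference of Col5a1 was −0.19 and −0.24.

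The basement membrane pair had positive differences in Dnmt3a-mi5 that were not called. Col4a1 stood at 549, 467, 463 and 483 normalised counts against 362, 383, 337 and 473, and the highest wild-type library lay within the mutant range. Its difference was 0.20 (SE 0.06, limma adjusted p = 0.107). Col4a2 stood at 644, 579, 602 and 658 against 513, 587, 469 and 601, with overlap, and its difference was 0.13 (SE 0.05, limma adjusted p = 0.21). The endothelial markers, which belong to a main source of type IV collagen, summed to 1320 to 1544 in Dnmt3a-mi5 and to 1142 to 1331 in Dnmt3a-WT, with Flt1 higher (0.25, limma adjusted p = 0.0473) and 6 of 7 tested markers positive. Their part in the values of Col4a1 and Col4a2 was not tested. The mural sums were 1855 to 2095 against 1697 to 1822, and the leptomeningeal sums 1822 to 3015 against 1814 to 3053. Excitatory neuron markers summed to 55562 to 61101 against 61536 to 65330, with 0 of 5 called, and of the 4 microglial markers Cx3cr1 (−0.24) and P2ry12 (−0.30) were lower (limma adjusted p = 0.00919 and 0.0495). Of the interneuron, oligodendrocyte, precursor and astrocyte markers, 0 were called in this model, beside 0.797% of all genes tested.

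The collagens with the largest differences in miR29Nestin were near 0 or low in the second model. Col26a1 lay under the filter at 62.8, 50.5, 62.1 and 60.95 normalised counts in Dnmt3a-mi5 and 79.8, 52.3, 46.1 and 76.01 in Dnmt3a-WT, with the mutant values inside the wild-type range. Col6a5 lay under it too, at 19.4 ± 6.63 against 20.1 ± 5.37 (SD, n = 4 each). Col19a1, at 431 ± 39.3 against 433 ± 78.4, had a difference of 0.00 (limma adjusted p = 0.996). The groups of both type I chains overlapped. Col1a1 stood at 117, 131, 84.4 and 193 against 109, 185, 107 and 167 (difference −0.05, limma adjusted p = 0.846). Col1a2 stood at 211, 233, 154 and 311 against 204, 318, 251 and 257 (difference −0.09, limma adjusted p = 0.624). Col3a1, under the filter, was at 35.7 ± 9.21 against 34.2 ± 6.15.

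The remaining tested collagens of that table had limma adjusted p values of 0.357 to 0.918. The largest of their differences was that of Col9a3, a FACIT chain, at 0.17 (SE 0.12, adjusted p by limma = 0.463), with 217, 122, 107 and 210.00 normalised counts against 80.6, 149.98, 175 and 80.6 and wide overlap. Its lowest 3 libraries were those with the lowest sums of choroid plexus markers, whose part in this value was not tested. Col23a1 (−0.10), Col11a2 (0.08), Col25a1 (−0.06), Col12a1 (−0.06), Col11a1 (−0.05), Col6a1 (−0.02) and Col16a1 (−0.01) were the others. Of the 29 collagens under the filter, Col7a1 and Col22a1 had groups that did not overlap, beside 12.0% of the genes that passed the filter. The share among all genes under the filter was not computed. Col7a1 stood at 35.1, 36.05, 36.9 and 31.3 against 24.9, 15.1, 19.3 and 22.4 (unfiltered difference 0.14, limma adjusted p = 0.0847). Col22a1, a FACIT of tissue junctions, stood at 17.4, 13.5, 11.5 and 17.00 against 26.9, 24.7, 19.6 and 37.00 (−0.13, limma adjusted p = 0.14). These 2 were named after their values were seen. Of the genes that handle collagen, 0 of 15 biosynthesis genes, 0 of 5 receptors and 0 of 3 proteoglycans that passed the filter were called by limma, beside 0.797% of all genes tested.

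**Figure D5:**
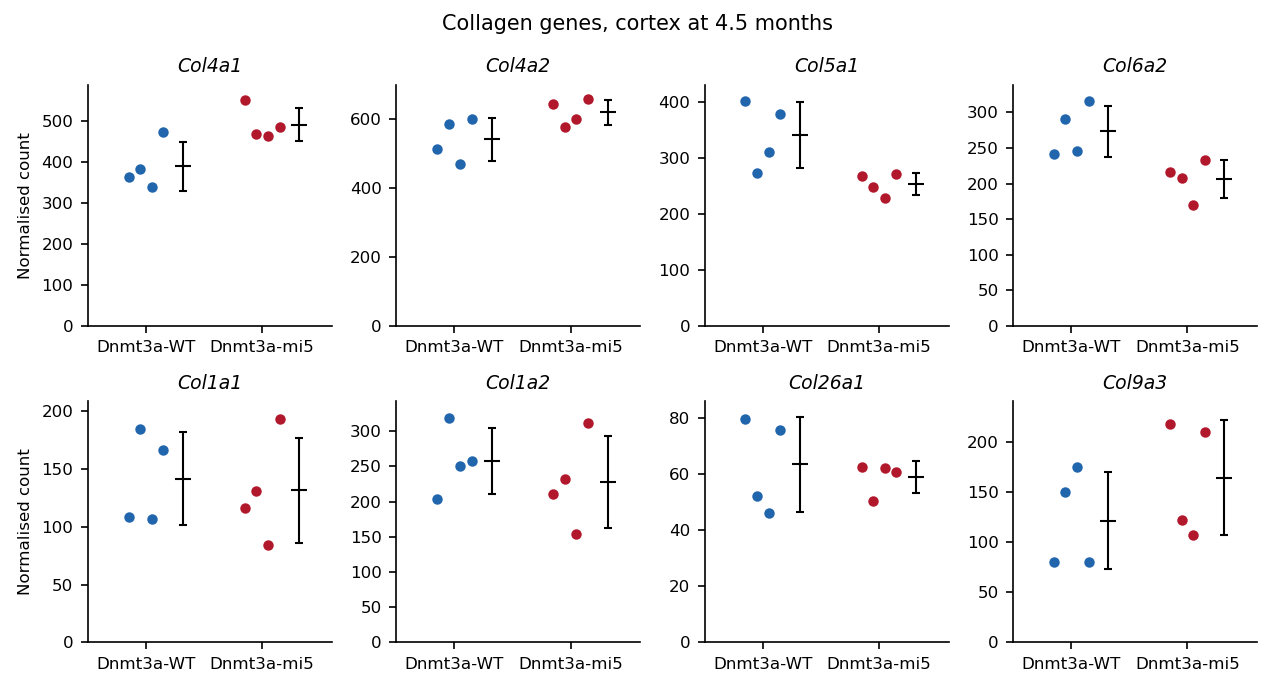
Normalised counts of 8 collagens in each library of the Dnmt3a table (points), with the mean and SD (n = 4 per group). Col5a1 and Col6a2 are the panels in which no mutant library reaches a wild-type one, and in the other panels the groups overlap.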

How the data were processed

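Polyadenylated RNA of 14 cortex samples gave paired-end, strand-specific libraries, for which the authors used different extraction and library kits in the 2 models, per the labels' protocols. Trimming, alignment and quantification used cutadapt, STAR and Salmon in roles and versions not given in the sources used here, and of the builds hg19 and mm9 in the submitters' processing notes the step is not stated. The authors deposited 1 table of log2 values per model, which are variance-stabilised values of DESeq2, per the file headers and the processing notes. All columns were used. The header of the Dnmt3a table repeats its replicate names, so its columns were assigned to groups and numbered by order only. There, libraries 1 and 2 of both groups and libraries 3 and 4 of both groups had the same mean in each gene, with a largest gap of 5.5e-09, against 0.538 for the next closest split. An additive effect had thus been taken out before deposit, and the fit with the set as a term is given among the alternatives.

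The transformation was inverted from the zero level of each table to give normalised counts, which for the Dnmt3a table are approximate. For the P40 libraries 85.7 to 88.8% of low values were whole within 0.05 reads, which gave 9.19 M to 14.4 M reads in genes. For the Dnmt3a table the depth is unknown, and normalised totals were 10.2 M to 10.4 M. Libraries of a group correlated at 0.989 to 0.997 across genes. Groups were compared with limma 3.58.1 (R 4.3.3) on the deposited values, in which the variance followed the mean level. Genes entered the fit where their mean exceeded the table's minimum by 1 or more, and p-values were adjusted over all of these by the Benjamini-Hochberg method. The fit was tested on simulated data. The labels do not say that the samples of a group came from separate mice, so p-values measure the spread between these samples, which may in part be technical, and with 3 per group an exact test cannot go below 0.1. Same-numbered P40 libraries deviated together (r = 0.335, 0.204 and 0.186). Of the unlike pairs, miR29Nestin 3 with miR29WT 2 gave 0.178 and the others −0.327 to −0.0552. The main fit had no block. The replicate number was a block in an alternative fit, whose values are given where they change a call. By Y-linked genes, 2 of 3 miR29WT and 1 of 3 miR29Nestin samples were male, and sex was tried as a covariate.

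The members, the gene lists and the alternatives were chosen with earlier results of these data known. Named with values were the called members, the 3 largest differences that were not called in each comparison, Col1a1, Col1a2, Col3a1, Col4a1 and Col4a2, the 5 members with the highest level per kb, and up to 4 called genes per list and direction. Other members were added for completeness. Marker lists were of leptomeningeal, endothelial, mural, choroid plexus, excitatory neuron, interneuron, oligodendrocyte, oligodendrocyte precursor, astrocyte and microglial genes. The GENCODE M21 annotation (GRCm38) supplied transcript lengths, 3′ UTRs and coordinates, and RefSeq the microRNA sequences. Other annotated genes on the same strand overlap the called collagens Col1a2, Col4a1, Col19a1 and Col26a1, and reads of such a pair may not be told apart. The same limit holds for Col3a1, Col4a3, Col4a5, Col4a6, Col5a2, Col6a3, Col7a1, Col20a1, Col24a1, Col27a1 and Col25a1, the last with 5 such genes. Python 3.11.15, numpy 2.4.6, pandas 2.3.3, scipy 1.17.1 and matplotlib 3.10.9 were used.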

Additional observations from a re-analysis of the deposited data

Results flagged for a closer look

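Col25a1 stood apart in 1 library of Dnmt3a-WT. Library 2 had 581 normalised counts, while the other 3 libraries of the group had 462 to 466. Its gap to them made up a share of 0.961 of the whole range of the group on the log2 scale, more than the Dixon criterion for 4 samples allows. This was 1 case in 30 groups of 4 examined, where chance alone gives about 1 in 20. Within the library set that holds it, the difference of Col25a1 between Dnmt3a-mi5 and Dnmt3a-WT was −0.17 on the log2 scale, and in the other set it was 0.04.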

How the results depend on the processing

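Of the 9 collagens called in miR29Nestin, 7 kept the call under every alternative that tested them, and Col1a1 and Col1a2 lost it in 4 and 7 of 13. No result changed sign while called. The stricter filter on low values gave 5 higher collagens, since fewer were tested. With longer matches only, 7 tested collagens had a site and 3 of them rose (5 tested in Dnmt3a-mi5), with the 3′ UTR of the longest coding sequence their median was 0.15, and without a filter 25 were tested in each model. Over all genes in Dnmt3a-mi5 the calls were 3 higher and 10 lower with the library set as a term, 4 and 21 without a filter, and 38 higher with the stricter filter. The replicate block gave 9 higher collagens and 1 lower (1409 and 1628 over all genes), and Col6a1 was the member it added. It changed no other call of a collagen. No paired analysis was possible for the Dnmt3a table because its columns do not carry separate replicate numbers. Leaving out single libraries gave 677 to 1015 higher and 722 to 1299 lower genes in miR29Nestin (fewest without miR29WT library 2), 6 to 8 higher collagens and 1 lower, and a median of 0.033 to 0.16 for tested collagens with a site. In Dnmt3a-mi5 it gave 3 to 49 higher and 5 to 126 lower genes, 0 to 1 lower collagens, which was Col5a1 without Dnmt3a-WT library 2, and medians of −0.08 to 0.00. Here the fewest higher genes were left without Dnmt3a-WT library 1 and the fewest lower genes without Dnmt3a-WT library 4. Low counts limit the 21 and 29 collagens under the filters, and for these the values do not show that the groups are alike.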

Other observations

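Markers of the choroid plexus, the epithelium that secretes cerebrospinal fluid, summed to 116 and 419 normalised counts in Dnmt3a-WT libraries 1 and 4 and to 289 in Dnmt3a-mi5 library 3, and to 4188 to 13637 in the other 5. Col8a1, a short-chain collagen, had 40.2, 95.05, 116 and 61.2 normalised counts in Dnmt3a-WT and 106, 81.5, 43.9 and 104 in Dnmt3a-mi5, and its lowest 3 libraries were the same 3. Its partner chain Col8a2 had 39.02, 68.6, 95.5 and 50.4 and 82.6, 96.5, 28.4 and 128, again lowest in those 3. Col9a3, which passed the filter, had 80.6, 149.98, 175 and 80.6 and 217, 122, 107 and 210.00, also lowest in those 3. Col18a1, the source of the fragment endostatin, had 37.8, 54.8, 62.6 and 40.7 and 57.9, 47.1, 39.2 and 55.8. The basement membrane chain Col4a3 had 2.14, 14.5, 17.6 and 3.65 in Dnmt3a-WT, lowest in libraries 1 and 4, but 20.7, 6.60, 6.75 and 13.5 in Dnmt3a-mi5, lowest in library 2, whose marker sum was 4188. The part of the choroid plexus markers in these values was not tested. Col6a4, another low collagen, had 69.5, 14.1, 13.6 and 50.5 in Dnmt3a-mi5, where 2 libraries were high and 2 low, and 57.3, 48.2, 53.1 and 72.5 in Dnmt3a-WT.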
